A study of Mus musculus with 12 samples.

Results

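The genes described here are 5 genes of the adenosine pathway, Nt5e, Entpd1, Adora2a, Adora2b and Ada, chosen by name and followed through the annotated cell classes of 6 mouse mammary tumours. All 5 were present among the 19369 genes of the tables of whole tumours and the 18574 genes of the tables of sorted leukocytes. The tumours were grown in the mammary fat pad of female BALB/c mice aged 9 to 11 weeks from 4T1, a mouse line of triple-negative breast cancer, or from clones of it that each descend from 1 cell. The groups were Clone E, Clone EM1, Clone EM2, Clone EM3, Clone M and Parental 4T1, and the series describes the clones as spanning epithelial, intermediate and mesenchymal states without giving the state of each. Each group is 1 tumour, so a clone and a tumour cannot be told apart, and no tumour was tested against another. Every tumour gave a Total library of its dissociated cells and a CD45 library, for which leukocytes had been pulled out by beads that bind CD45, their surface antigen.

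Extracellular ATP, released by stressed and dying cells, is turned into adenosine at the cell surface in successive steps. Entpd1 encodes CD39, which removes phosphates from ATP and ADP to give AMP, and Nt5e encodes CD73, which turns AMP into adenosine. Adora2a and Adora2b encode receptors that raise cyclic AMP, the first known for restraining T cells and the second for its low affinity for adenosine and its role in myeloid and stromal cells. Ada encodes adenosine deaminase, which turns adenosine into inosine and so ends the signal.

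The 12 libraries held 115612 cells, of which 2135 (1.85%) were called doublets and left out. Depth ranged from 38499899 to 122055131 UMIs (unique molecular identifiers, tags that let each captured RNA molecule be counted 1 time) in the Total libraries and from 28083101 to 57116299 in the CD45 libraries. Levels are given as CPM, the UMIs of a gene per 1000000 UMIs of a class, added up over its cells in 1 library, with exact 95% Poisson intervals that cover counting error only. The 5 genes were not compared with each other by level, since the capture of each gene per length is not known, and the marker sums of different genes carry the same limit. Tests compared classes within tumours, with the 6 tumours as replicates. The spread of a gene was estimated over all classes of a fit, so a p-value does not rest only on the differences between the classes compared. The tumour-cell and macrophage classes carried their defining markers: the summed level of 6 tumour-cell genes was 3729 to 8602 CPM in annotated tumour cells, and that of 6 macrophage genes was 7754 to 13956 CPM in annotated macrophages. Some classes carried markers of another type beside their own. In the class annotated Cd44- Cd4+ the 2 CD8 genes summed to 276 to 674 CPM against 190.0 to 403 for Cd4. In the class annotated B of the Total libraries, 3 plasma-cell genes (1961 to 17530 CPM) and 4 genes of plasmacytoid dendritic cells (1862 to 7275 CPM) stood beside 4 B-cell genes (1764 to 4613 CPM), and it is called the B class here. The subtype annotated NK likewise carried genes of plasmacytoid dendritic cells, as given beside the NK result. The tumour-cell class of Clone E stood apart from the others in leukocyte transcripts, with 1250.2 CPM of 5 granulocyte genes and 310.1 CPM of 6 macrophage genes, against 169 to 679 and 57.5 to 208 CPM in the other 5 tumours. No batch is labelled. By the first 16 bases of their cell barcodes the libraries fell into sets that shared 12.2% to 19.1% of them (E with EM3, EM1 with EM2, and M and the parental tumour each alone), against at most 1.91% for other pairs, so such a set and the clones in it cannot be told apart.

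The genes lie on different chromosomes (RefSeq, build GRCm38.p6, the patch release of the mm10 build named in the submitters' processing notes). Nt5e lies at chr9:88327609-88372089, Entpd1 at chr19:40612366-40741602, Adora2a at chr10:75316877-75334792, Adora2b at chr11:62248984-62266452 and Ada at chr2:163726571-163750239. Nt5e and Adora2b are known targets of the hypoxia-inducible factors. The 250 bases upstream of the annotated start of the tumour cells' enzyme and of the receptor that was highest in macrophages and fibroblasts are shown here, each on the + strand, with the core of the hypoxia response element in capitals (GCGTG, or CACGC where it is on the other strand). The windows are chr9:88327359-88327608 for Nt5e and chr11:62248734-62248983 for Adora2b.
Nt5e: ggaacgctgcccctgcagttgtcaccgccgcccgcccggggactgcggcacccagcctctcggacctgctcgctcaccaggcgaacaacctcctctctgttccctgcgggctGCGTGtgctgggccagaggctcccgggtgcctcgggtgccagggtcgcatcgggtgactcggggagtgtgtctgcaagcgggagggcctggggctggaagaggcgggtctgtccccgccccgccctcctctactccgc
Adora2b: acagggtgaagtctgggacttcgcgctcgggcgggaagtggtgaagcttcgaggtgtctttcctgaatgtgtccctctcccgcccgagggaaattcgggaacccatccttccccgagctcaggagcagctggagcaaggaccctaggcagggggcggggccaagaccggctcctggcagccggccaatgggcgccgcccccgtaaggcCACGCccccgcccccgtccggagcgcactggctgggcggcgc
GCGTG was searched on both strands and was found 1 time in each of these windows and 1 time in the first of both Entpd1 windows, and it was not found in the second Entpd1 window or in the Ada window. ACGTG, the other form of the core, was found in none of these windows. No promoter window of Adora2a was searched. GCGTG was present in 28.2% of all 32851 promoter windows of this length and either form in 38.6%, so a match is common. GGGCGG, the GC box, was found 4 times in the Nt5e window and 6 times in the Adora2b window, and 32.7% of all windows hold it. A match is a description of the letters and not a measured site.

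Nt5e, the enzyme that makes adenosine, was highest in tumour cells in 5 of 6 tumours. Its level in tumour cells was 733 CPM in EM2, then 714 (EM3), 460.3 (parental), 437 (E), 327 (EM1), and 161 in M. The counting intervals were narrow, from 158 to 165 CPM in M and from 726 to 741 CPM in EM2. EM2 and EM3 were the high tumours and M was the low one, and the highest level was 4.54-fold the lowest. With cells thinned to 1000 UMIs each to remove the difference in depth, the share of tumour cells with an Nt5e UMI was 48.0% in EM2, 47.0% in EM3, 34.0% in the parental tumour, 26.1% in E, 24.4% in EM1 and 13.3% in M. Without thinning these shares were 95.1%, 95.3%, 89.6%, 70.0%, 74.2% and 71.8%, at median depths of 6539 UMIs in E to 15267.5 in EM3. Between 4 and 27 tumour cells per tumour were shallower than 1000 UMIs and were left out of the thinned shares. In dendritic cells, the class with the lowest median Nt5e level, thinned shares were 1.33% to 4.76%. By the median over tumours the order after tumour cells (449 CPM) was T and NK cells (233), endothelial cells (199), granulocytes (153), macrophages (127), fibroblasts (68.9), the B class (59.6) and dendritic cells (42.5). T and NK cells were above endothelial cells in 2 of 6 tumours and fibroblasts above the B class in 3 of 6, so these neighbours have no clear order. Transcripts of tumour cells were found in the other classes of the Total libraries too. The 6 tumour-cell genes summed, as a percent of their tumour-cell level, to 4.67% to 23.7% in T and NK cells, 3.28% to 16.6% in endothelial cells, 2.34% to 4.82% in macrophages, 3.63% to 25.9% in fibroblasts, 4.76% to 19.4% in the B class and 2.46% to 8.80% in dendritic cells. On the same scale Nt5e was above the list in 6 of 6 tumours in T and NK cells, endothelial cells, granulocytes, macrophages and dendritic cells, in 5 of 6 in fibroblasts and in 4 of 6 in the B class. The part of tumour-cell RNA in these Nt5e levels was not tested.

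Entpd1, the enzyme before it in the pathway, was lowest in tumour cells in every tumour. Its level there was 23.5 CPM in E (interval 19.6 to 28.1), then 9.18 (EM3), 8.42 (M), 5.46 (parental), 4.99 (EM2), and 3.33 in EM1. E was thus 7.08-fold above EM1. The same tumour-cell class of E had the highest granulocyte and macrophage marker levels, as given above, and S100a8, a granulocyte gene, reached 1.06% of its level in the granulocytes of that tumour, against 0.114% to 0.663% in the others. Entpd1 in tumour cells was 1.86% of its granulocyte level in E and 0.220% to 0.734% in the others; the part of leukocyte RNA in these values was not tested.

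The receptors and Ada were also low in tumour cells. Adora2a was at 21.1 CPM in E and 9.93 in M, and at 2.44 (EM2) to 4.59 CPM (EM3) in the other 4. The summed level of 4 T-cell genes in the tumour-cell class was likewise highest in E (61.2 CPM) and next in M (23.0), against 6.44 to 17.0 in the others, and its part was not tested. Adora2b was at 2.57 (M) to 8.42 CPM (E). Ada was at 4.71 (EM2) to 8.47 CPM (M), a range of 1.80-fold. Of the 5 genes, 3 were at 10 CPM or more in a tumour and differed by at least 1 on the log2(CPM + 1) scale between the highest and the lowest tumour, and 37.9% of the 9902 genes at that level in tumour cells did so. Entpd1 and Adora2a reached 10 CPM in E alone, the tumour that also made their difference, so the count is a description only.

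**Figure D1:**
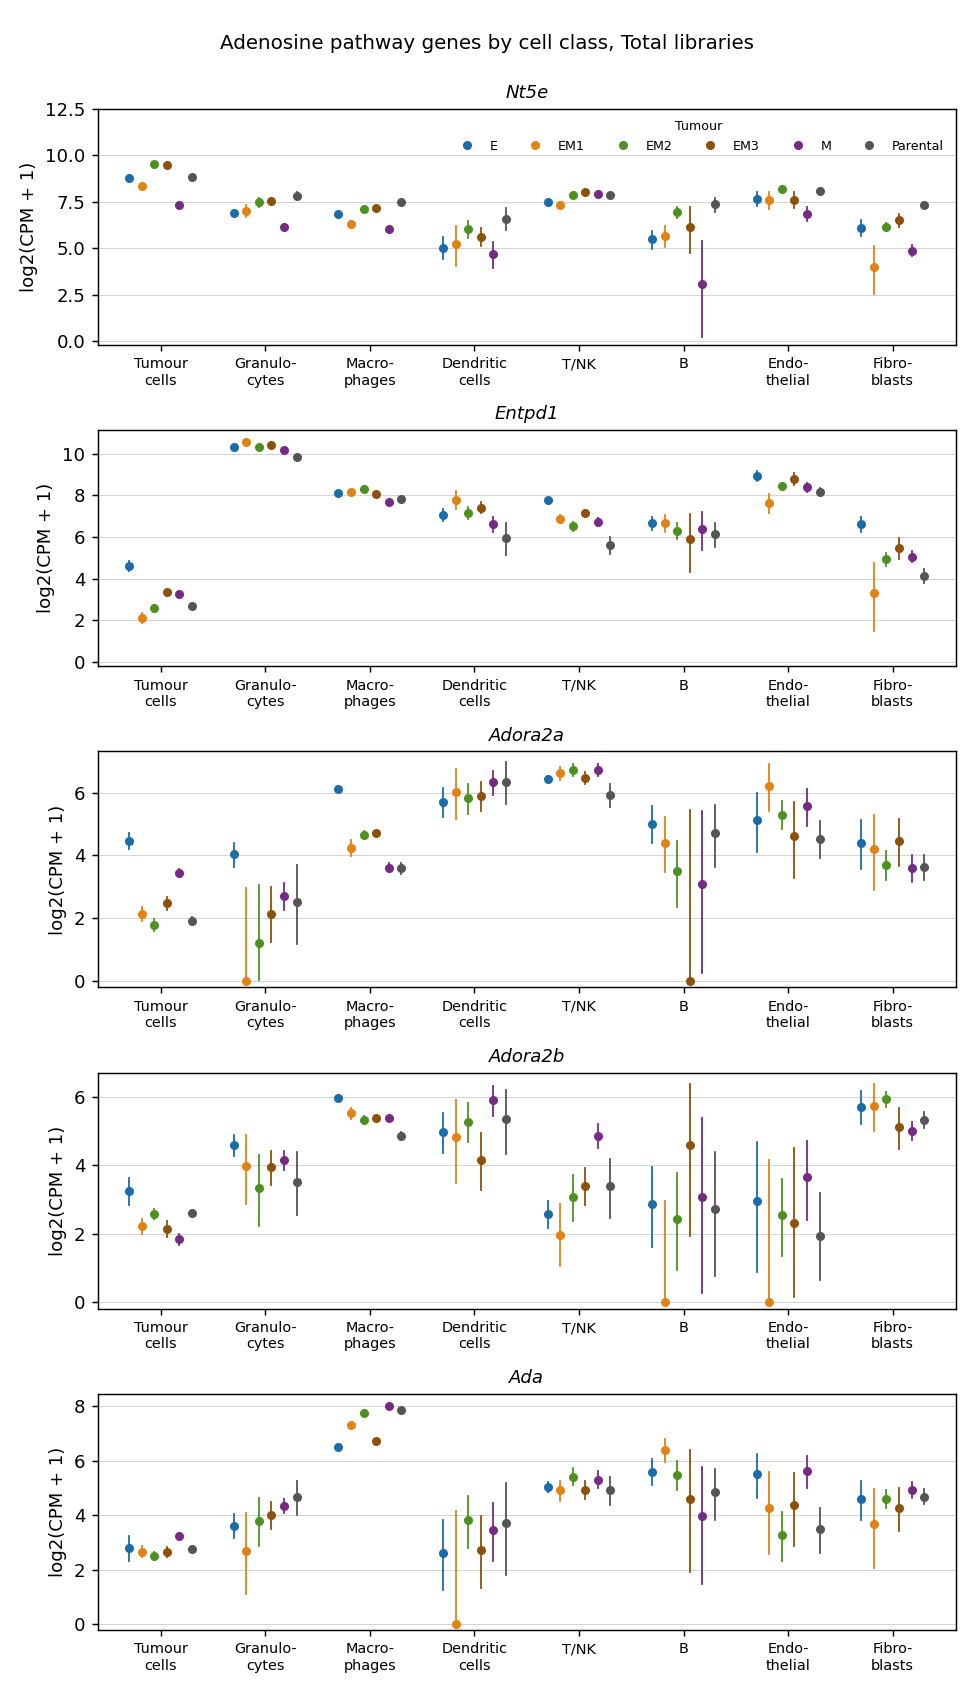
Level of each gene, as log2(CPM + 1), by annotated class in the 6 Total libraries, 1 point per tumour with its exact 95% Poisson interval. Nt5e sits highest in tumour cells in all tumours but M, Entpd1 in granulocytes, and Ada in macrophages.

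Set against the tumour cells of the same tumours, Nt5e was lower and Entpd1 and Ada were higher in macrophages, T and NK cells, granulocytes and the mean of the stromal classes. The differences of the receptors depended on the class. In the comparison of macrophages with tumour cells, 77.9% of all genes passed the test, so that a call alone says little and the sizes are what is given. Nt5e was lower in macrophages, where it was at 180.2 CPM in the parental tumour, then 145 (EM3), 139 (EM2), 115 (E), 78.7 (EM1), and 65.4 in M, a log2 difference of −1.55 ± 0.21 (SE, n = 6 tumours; edgeR quasi-likelihood test, Benjamini-Hochberg adjusted p = 1.03e-08). Every macrophage value lay below the tumour cells of its own tumour. Entpd1 was higher in macrophages by 5.44 ± 0.29 (edgeR adjusted p = 9.68e-22), Ada by 5.23 ± 0.24 (edgeR adjusted p = 1.48e-23), Adora2b by 3.61 ± 0.29 (edgeR adjusted p = 1.67e-15) and Adora2a by 2.38 ± 0.31 (edgeR adjusted p = 2.43e-09), each in 6 of 6 tumours.

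T and NK cells, which form 1 class in the Total libraries, also differed from tumour cells in all 5 genes, where 73.6% of all genes passed. Nt5e in T and NK cells was at 264 CPM in EM3, then 240.4 (M), 234 (parental), 233 (EM2), 181 (E), and 162 in EM1. It was below the tumour cells in 5 tumours and above them in M, with a log2 difference of −1.10 ± 0.21 (edgeR adjusted p = 1.26e-05, n = 6). Adora2a, the receptor on T cells, was at 104.1 CPM in M, then 104 (EM2), 96.5 (EM1), 87.9 (EM3), 85.3 (E), and 59.4 in the parental tumour. T and NK cells were the highest class in all tumours but the parental one, where the 65 dendritic cells had 80.0 CPM with an interval of 48.9 to 124 that overlapped that of T and NK cells. Adora2a was higher in T and NK cells than in tumour cells by 3.77 ± 0.33 (edgeR adjusted p = 3.64e-14), Entpd1 by 3.63 ± 0.27 and Ada by 2.34 ± 0.23, each in 6 of 6 tumours. The higher Adora2b level, 0.90 ± 0.33 (edgeR adjusted p = 0.0130), rested on M, where the class had 28.2 CPM against 2.91 to 9.56 elsewhere; without M the difference was 0.19 (edgeR adjusted p = 0.569). It also did not pass with only both classes in the fit (0.85, edgeR adjusted p = 0.190) or with cells split by their Ptprc UMIs (0.53, edgeR adjusted p = 0.117). In the CD45 library of M, T cells had 4.63 CPM of Adora2b. The T and NK class of the M Total library also had the highest granulocyte marker level of the 6 (4289 CPM against 494 to 2029.9). Granulocytes of that library had 16.9 CPM of Adora2b, and the part of other classes' RNA in the T and NK value was not tested.

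Granulocytes had the highest Entpd1 level of all classes in every tumour. It was at 1513 CPM in EM1, then 1347 (EM3), 1281 (EM2), 1266 (E), 1148 (M), and 898 in the parental tumour. The difference from tumour cells was 7.90 ± 0.32 on the log2 scale (edgeR adjusted p = 1.43e-25, n = 6), in a comparison in which 79.3% of all genes passed. Even after thinning to 1000 UMIs, 53.5% to 70.6% of granulocytes had an Entpd1 UMI, against 0.482% to 4.07% of tumour cells, and without thinning 55.9% to 71.8% against 2.44% to 11.97%. Granulocytes are shallow, at median depths of 779.5 (EM1) to 1459.5 UMIs (EM3), and the thinned shares left out those under 1000 UMIs, from 174 of 1196 granulocytes in EM3 to 392 of 552 in EM1. Adora2b (2.34 ± 0.33) and Ada (1.95 ± 0.27) were also higher and Nt5e was lower (−1.02 ± 0.22, edgeR adjusted p = 4.59e-05), while Adora2a, at 0 to 15.3 CPM, did not pass (0.51 ± 0.41, edgeR adjusted p = 0.255). Between granulocytes and other cells the scaling matters: by library sizes alone, the scale of the CPM, the median of all genes moved by −0.60 on the log2 scale against the edgeR scaling (TMM), Nt5e then differed by −1.63 and Adora2a by −0.12 (edgeR adjusted p = 0.791).

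Endothelial cells stood out for Entpd1 and fibroblasts for Adora2b. Endothelial cells had Entpd1 at 486 CPM in E, then 442 (EM3), 351 (EM2), 336 (M), 288 (parental), and 197 in EM1, next after granulocytes in 5 of 6 tumours. After macrophages (201 to 315 CPM) came dendritic cells with a median of 136 CPM, T and NK cells with 111, the B class with 79.6 and fibroblasts with 30.9, and dendritic cells were above T and NK cells in only 4 of 6 tumours. Fibroblasts had Adora2b at 60.4 CPM in EM2, then 52.8 (EM1), 51.5 (E), 39.4 (parental), 33.6 (EM3), and 31.4 in M, the highest median level of the classes, and they overlapped macrophages (28.0 to 62.3 CPM), being above them in 3 of 6 tumours. Dendritic cells (17.0 to 59.0 CPM) overlapped both, and granulocytes (9.09 to 23.1 CPM) were below dendritic cells in 6 of 6 tumours. The mean of both stromal classes differed from tumour cells in all 5 genes, where 65.1% of all genes passed, with a log2 difference of −1.64 ± 0.18 for Nt5e, 4.06 ± 0.26 for Entpd1, 2.30 ± 0.32 for Adora2a, 2.00 ± 0.41 for Adora2b and 2.16 ± 0.25 for Ada (edgeR adjusted p at most 4.1e-05, n = 6). Taken one by one, in comparisons chosen after the levels had been seen, fibroblasts exceeded tumour cells in Adora2b by 3.76 ± 0.31 and endothelial cells did not pass (0.24 ± 0.58, edgeR adjusted p = 0.755); 63.3% and 58.0% of all genes passed in these comparisons. Endothelial classes held 37 to 145 cells and fibroblast classes 52 to 261.

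**Figure D2:**
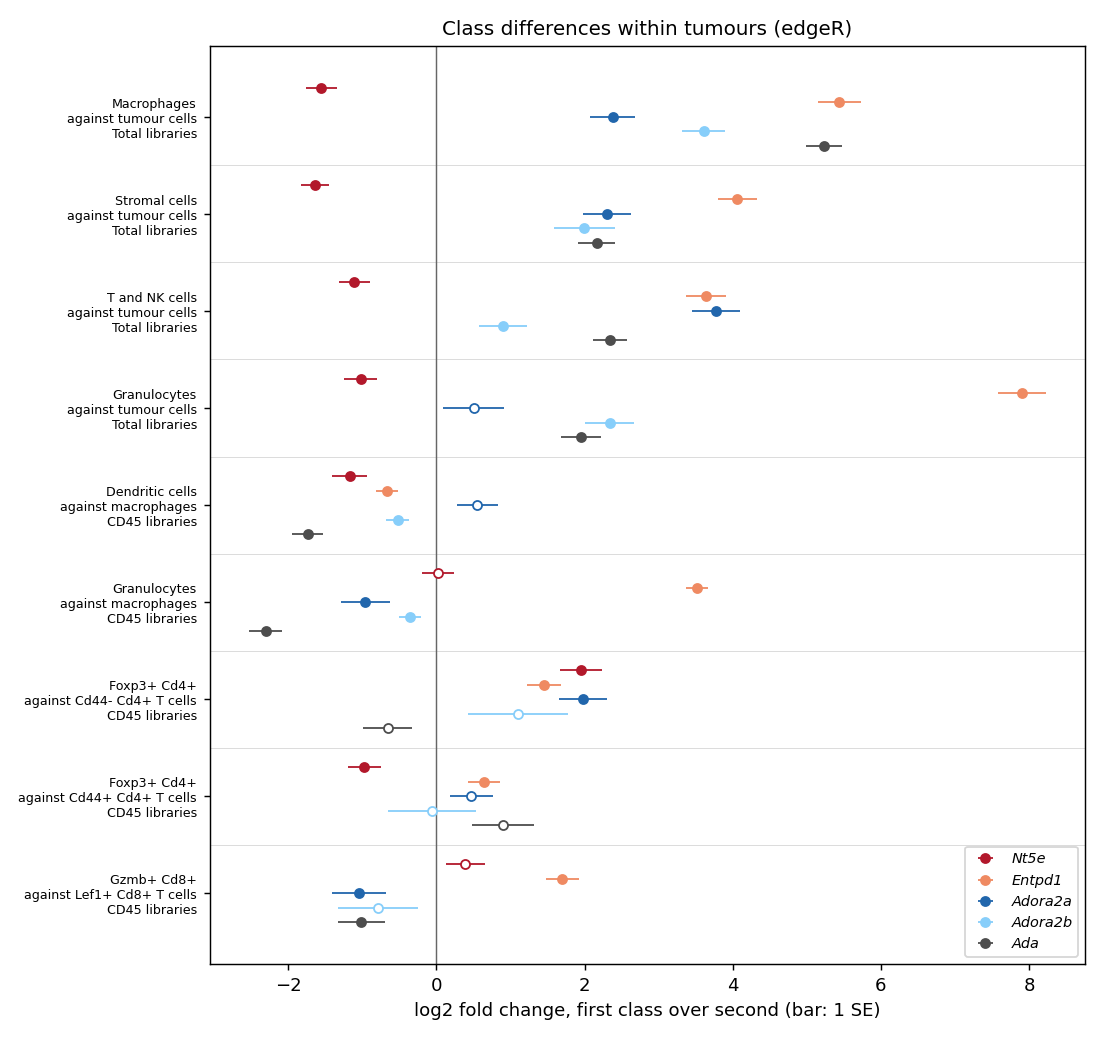
Log2 difference of each gene between classes within tumours (points, edgeR fit over the tumours; bars, 1 SE; filled points passed at adjusted p under 0.05, open points did not). Nt5e lies to the left of 0 in every comparison with tumour cells, and Entpd1 and Ada lie to the right.

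In the Total libraries Ada was highest in macrophages in every tumour. It was at 257 CPM in M, then 233 (parental), 217 (EM2), 157 (EM1), 104 (EM3), and 88.9 in E, and the next of the named classes by its median, the B class, had 14.9 to 82.9 CPM. The macrophages of the CD45 libraries gave the same order of tumours apart from the exchange of E and EM3: 297 CPM in M, 249 in the parental tumour, 241 in EM2, 188 in EM1, 117 in E and 93.4 in EM3. M was 2.89-fold above E in the Total libraries and 3.18-fold above EM3 in the CD45 libraries. Macrophages held 79.0% to 92.2% of all Ada UMIs of the Total libraries.

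Clone E had the highest Adora2a level in macrophages. It was 69.0 CPM in E, then 25.0 (EM3), 24.0 (EM2), 17.8 (EM1), 11.2 (M), and 11.1 in the parental tumour, a range of 6.24-fold. In the CD45 libraries it was 67.0 CPM in E, then 51.3 (EM3), 29.5 (EM2), 19.0 (both EM1 and parental), and 15.0 in M, so that E was again the highest and EM3 was closer to it. Other myeloid classes had E highest too: granulocytes with 15.3 CPM against 0 to 5.51 in the Total libraries and 19.0 against 3.70 to 12.1 in the CD45 libraries, and the CD45 class annotated Other Myeloid with 39.2 against 1.85 to 19.7. Macrophages of E also had the lowest macrophage marker level of the 6 (7754 CPM in the Total and 8791 CPM in the CD45 library, against 10789.5 to 14512 in the other libraries). Their summed T-cell markers were highest in E in the Total libraries (59.9 CPM against 15.0 to 22.2) but not in the CD45 libraries (17.4 CPM against 8.60 to 19.8). In Total macrophages 4 of the 5 genes differed by at least 1 on the log2(CPM + 1) scale between the highest and the lowest tumour, against 16.8% of the 8798 genes at 10 CPM or more in a tumour, and in CD45 macrophages 3 of 5, against 13.3% of 8275 such genes. Adora2b, the gene that made the difference, was 0.45 there and was also under 1 in the Total libraries with a pseudocount of 10 (0.93). The CD45 macrophages had 170.1 CPM of Nt5e in the parental tumour and 55.9 in EM1. Entpd1 was at 201 to 315 CPM in Total macrophages and varied by 1.57-fold, and the intervals of both libraries of a tumour overlapped in 6 of 6 tumours.

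**Figure D3:**
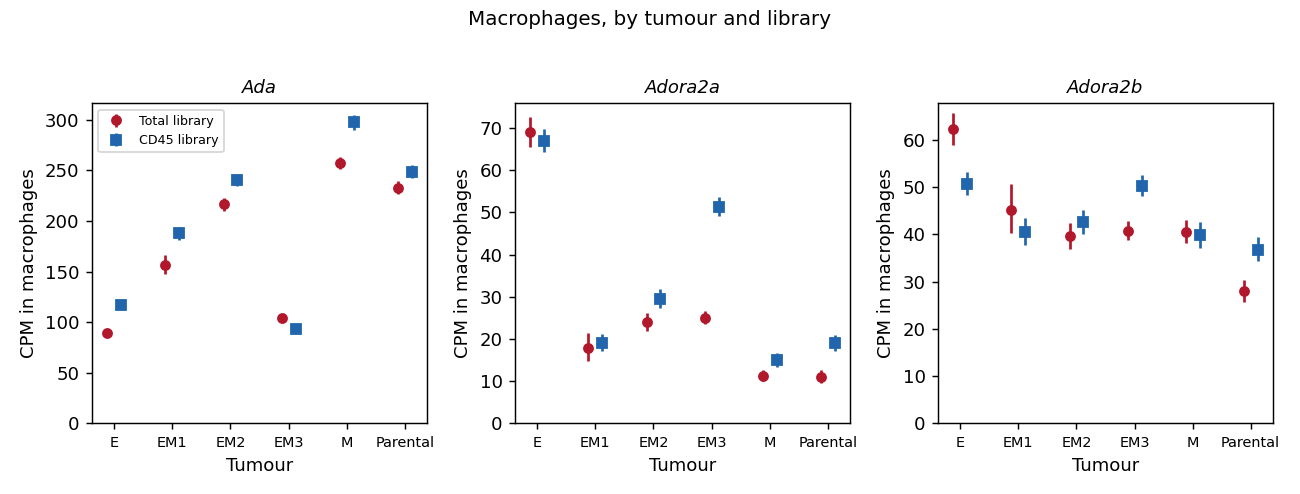
Level of Ada, Adora2a and Adora2b (CPM, linear axis from 0) in macrophages of the Total and the CD45 library of each tumour, with exact 95% Poisson intervals. Adora2a is highest in Clone E in both libraries (69.0 and 67.0 CPM), and Ada is highest in Clone M (257 and 297 CPM).

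Of the classes with mixed labels, Other Myeloid of the CD45 libraries (283 to 533 cells) carried macrophage genes at 9951 to 14706 CPM. It came next after macrophages in Ada, with 87.7 to 218 CPM, above them in EM3 (104 against 93.4). The class annotated T/Myeloid Hybrid (23 to 86 cells) had Adora2b at 15.3 to 76.7 CPM, the highest median of the CD45 classes but above macrophages in 3 of 6 tumours, Entpd1 at 184 to 399 CPM and Nt5e at 107 to 212 CPM. Its granulocyte genes summed to 8185 to 19989 CPM and its T-cell genes to 671 to 1278 CPM. Macrophage genes summed there to 3012 to 6482 CPM and mast-cell genes to 29.8 to 4689 CPM. Cells annotated Unknown in the Total libraries (36 to 102 cells in the 4 tumours with at least 20) carried both macrophage (3514 to 6053 CPM) and tumour-cell genes (1917 to 3915 CPM), with Nt5e at 129 to 579 CPM and Ada at 60.2 to 106 CPM.

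Within the CD45 libraries, 4 of the 5 genes were lower in dendritic cells than in macrophages, where 47.8% of all genes passed. The differences were −1.17 ± 0.24 for Nt5e, −0.66 ± 0.15 for Entpd1, −0.52 ± 0.15 for Adora2b and −1.73 ± 0.21 for Ada (edgeR adjusted p at most 0.00438, n = 6), each in 6 of 6 tumours. They were beyond counting error in all 6 for Nt5e, Entpd1 and Ada, but in only 2 for Adora2b. Adora2a was at 27.9 to 63.8 CPM in dendritic cells and 15.0 to 67.0 in macrophages and did not pass (0.55 ± 0.28, edgeR adjusted p = 0.0993), although it did without E (0.75, edgeR adjusted p = 0.0132) and with every gene of at least 1 count (0.52, edgeR adjusted p = 0.0265). For Ada the dendritic classes of the libraries disagreed: the level was 0 to 13.1 CPM in the Total libraries and 43.8 to 60.8 in the CD45 libraries, and the intervals were apart in all 6 tumours. The summed macrophage markers of the dendritic class moved the same way, from 403 to 1363 CPM in the Total libraries to 1844 to 7094 in the CD45 libraries. Whether macrophages in that class account for the Ada level was not tested.

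Granulocytes of the CD45 libraries exceeded macrophages in Entpd1 by 3.52 ± 0.15 on the log2 scale (edgeR adjusted p = 1.45e-24, n = 6; 77.8% of all genes passed), with 1429 CPM in M to 1900.5 in EM1. Ada (−2.30 ± 0.22), Adora2a (−0.96 ± 0.33) and Adora2b (−0.35 ± 0.15, edgeR adjusted p = 0.0312) were lower in granulocytes. The call of Adora2b was lost without EM2 (−0.36, edgeR adjusted p = 0.0570), EM3 (−0.32) or the parental tumour (−0.34). Nt5e did not pass (0.02 ± 0.22, edgeR adjusted p = 0.924), but by library sizes alone it was lower in granulocytes (−0.86, edgeR adjusted p = 4.09e-04), as the CPM were in 6 of 6 tumours. That scaling moved the median of all genes by −0.88. In the Total libraries, in a comparison chosen after the levels had been seen, Nt5e was higher in granulocytes than in macrophages (0.53 ± 0.22, edgeR adjusted p = 0.0281; 69.7% of all genes passed), in 6 of 6 tumours, a call lost without EM2 (0.50, edgeR adjusted p = 0.0699), with every gene of at least 1 count (0.41, edgeR adjusted p = 0.105) and by library sizes alone (0.31, edgeR adjusted p = 0.212). Nt5e in granulocytes depended on the library: 69.8 to 224 CPM in the Total libraries and 41.6 to 87.8 in the CD45 libraries, lower in the latter in 6 of 6 tumours with intervals apart. The 6 tumour-cell genes summed in granulocytes to 8.18% to 25.9% of their tumour-cell level in the Total libraries and to 0.0962% to 0.487% in the CD45 libraries. In macrophages of the CD45 libraries these genes reached 0.0751% to 0.113% of their tumour-cell level, while Nt5e there was 15.6% to 38.6% of it. The tumour-cell levels are those of the Total libraries, and the part of tumour-cell RNA in Nt5e was not tested.

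Nt5e, Entpd1 and Adora2a were all detected in the T-cell sums, which do not show whether 1 cell carried them together. In T cells of the CD45 libraries Nt5e was at 282 CPM in M, then 199 (EM3), 167 (E), 113 (EM2), 101 (EM1), and 99.5 in the parental tumour, with M the highest, the reverse of its place in tumour cells. The tumour-cell genes summed in these T cells to 0.177% to 0.472% of their tumour-cell level in the Total libraries, while Nt5e was 15.4% to 174.9% of it, above the list in 6 of 6 tumours. The part of tumour-cell RNA in these Nt5e levels was not tested. Against macrophages, in comparisons chosen after the levels had been seen, Nt5e did not pass in T cells of the CD45 libraries (0.12 ± 0.21, edgeR adjusted p = 0.599; 78.6% of all genes passed) or in T and NK cells of the Total libraries (0.45 ± 0.21, edgeR adjusted p = 0.0606; 66.6% of all genes passed), where it was higher in 6 of 6 tumours. The latter passed under 6 alternatives, at 0.51 to 1.01, among them DESeq2 (0.60, DESeq2 adjusted p = 0.0224), library sizes alone (1.01, edgeR adjusted p = 6.35e-05) and without E, EM3 or the parental tumour (0.53 to 0.62). Over all fits without 1 tumour this difference was 0.17 to 0.62, so its size depended on the tumours kept. Adora2a in T cells was 82.2 CPM (parental) to 144 (M), and in NK cells 142 (EM3) to 243 (EM2). NK cells were above T cells in Adora2a in 6 of 6 tumours, beyond counting error in 3 of them. In this comparison, chosen after the levels had been seen, 15.8% of all genes passed. The Adora2a difference did not pass (0.73 ± 0.35, edgeR adjusted p = 0.176), although it did with only both classes in the fit (0.83, edgeR adjusted p = 4.43e-04). Ada was higher in NK cells in 5 of 6 tumours, beyond counting error in 2 of them (1.16 ± 0.39, edgeR adjusted p = 0.0362). That call was lost without E, EM1, EM2 or M (edgeR adjusted p = 0.0625 to 0.171). These are the NK cells of the broader annotation, in which 4 genes of plasmacytoid dendritic cells summed to 93.0 to 391 CPM. In the subtype also annotated NK those genes summed to 4328 to 11142 CPM and Adora2a was at 42.2 to 127 CPM. Entpd1 in T cells was 70.3 CPM in M to 211 in E, and in the Total libraries the T and NK class ranged from 48.1 (parental) to 217 (E), so that E was the highest in both. The T-cell marker level of the Total class was lowest in the parental tumour (1675 CPM against 2206 to 3538). Adora2b was near its lowest in T cells, at 1.81 to 9.47 CPM.

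Among the T-cell classes annotated Cd4+, Nt5e was highest in the Cd44+ Cd4+ subtype (Cd44 marks T cells that have met antigen), with 492 CPM in M, then 307 (E), 298 (parental), 284 (EM3), 248 (EM1), and 227 in EM2. The Foxp3+ subtype, whose regulatory T-cell genes Foxp3, Il2ra and Ikzf2 summed to 5871 to 7106 CPM, had 205 CPM in E, then 202 (EM2), 181 (EM3), 153 (parental), 105 (M), and 102 in EM1. The class annotated Cd44- Cd4+ had 138 CPM in M, then 87.2 (EM3), 42.8 (parental), 40.6 (E), 40.5 (EM2), and 31.1 in EM1. The Cd44+ values lay above the Foxp3+ values in 6 of 6 tumours, and the Foxp3+ values above the Cd44- ones in all tumours but M.

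Against the Cd44- class, Foxp3+ cells were higher in Nt5e by 1.95 ± 0.28 on the log2 scale (edgeR adjusted p = 1.67e-08, n = 6), in Adora2a by 1.98 ± 0.32 (edgeR adjusted p = 4.54e-07) and in Entpd1 by 1.45 ± 0.23 (edgeR adjusted p = 2.12e-07); 34.4% of all genes passed. Adora2a was at 269.7 CPM in EM1, then 243 (EM2), 208 (E), 199 (parental), 181 (M), and 146 in EM3 in Foxp3+ cells, against 35.4 to 98.1 in the Cd44- class, so that the groups did not overlap. Entpd1 was at 103 to 169 CPM against 32.7 to 61.4, again without overlap. The Cd44- class also carried CD8 genes, as given above, and the part of CD8 T cells in any difference from this class was not tested. Adora2b (1.10, edgeR adjusted p = 0.212) and Ada (−0.66, edgeR adjusted p = 0.113) did not pass, although Ada did with only both classes in the fit (−0.98, edgeR adjusted p = 0.0209).

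Against the Cd44+ subtype, Foxp3+ cells were lower in Nt5e (−0.97 ± 0.22, edgeR adjusted p = 6.54e-04, n = 6), where 14.4% of all genes passed. Entpd1 was higher in Foxp3+ cells in 6 of 6 tumours, by 0.64 ± 0.21 (edgeR adjusted p = 0.0291), a call that was lost without EM3 (0.67, edgeR adjusted p = 0.0933) or M (0.57, edgeR adjusted p = 0.0847). Within single tumours this Entpd1 difference was beyond counting error in 0 of 6. Adora2a, at 91.7 to 214 CPM in Cd44+ cells, did not pass (0.47 ± 0.29, edgeR adjusted p = 0.323), although it did at nearly the same size with only both classes in the fit (0.46, edgeR adjusted p = 0.0100) or with every gene of at least 1 count (0.47, edgeR adjusted p = 0.0424). Ada did not pass (0.90 ± 0.42, edgeR adjusted p = 0.152) except without EM1 (1.29, edgeR adjusted p = 0.0486). In the comparison of both other subtypes, chosen after the levels had been seen, Cd44+ exceeded Cd44- cells in Nt5e by 2.92 ± 0.26 (edgeR adjusted p = 5.96e-16), in Adora2a by 1.51 ± 0.32 and in Entpd1 by 0.80 ± 0.23, and were lower in Ada by −1.56 ± 0.34 (edgeR adjusted p = 2.07e-04), where 23.8% of all genes passed; the Entpd1 call was lost without EM3 (0.65, edgeR adjusted p = 0.0712).

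Among CD8 T cells, Entpd1 differed by the most of the 5 genes. In the Gzmb+ subtype, which carries the granzyme B gene of cytotoxic cells, it was at 419 CPM in E, then 302 (EM1), 265 (EM2), 251 (EM3), and 75.9 in M. In the Lef1+ subtype, named for a transcription factor of resting T cells, it was at 135 CPM in the parental tumour, then 107 (E), 101 (EM3), 60.4 (EM2), 53.5 (EM1), and 41.2 in M. The parental tumour held 8 Gzmb+ cells, under the minimum of 20, and was left out of that class. Gzmb+ cells were higher in 5 of 5 tumours, by 1.70 ± 0.22 on the log2 scale (edgeR adjusted p = 7.65e-09, n = 5 against 6; 12.6% of all genes passed), and E was the highest and M, with 63 cells, the lowest. S100a8 in Gzmb+ cells was 0.583% to 2.15% of its level in granulocytes of the Total libraries, and Entpd1 was 6.61% to 33.1% of its own. The part of RNA from other classes in these values was not tested. Adora2a was lower in Gzmb+ cells (47.4 to 90.4 CPM against 64.7 to 231) by −1.04 ± 0.36 (edgeR adjusted p = 0.0442), and Ada by −1.01 ± 0.32 (edgeR adjusted p = 0.0215). The call of Adora2a was lost without EM1, EM2, EM3, M or the parental tumour (−1.31 to −0.80, edgeR adjusted p = 0.0587 to 0.175), with at least 50 cells in a class (−1.02, edgeR adjusted p = 0.0895) and with doublets kept (−1.002, edgeR adjusted p = 0.0547), and that of Ada without E, EM2 or M (−1.01 to −0.84, edgeR adjusted p = 0.0545 to 0.124). Nt5e did not pass (0.39 ± 0.26, edgeR adjusted p = 0.397).

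**Figure D4:**
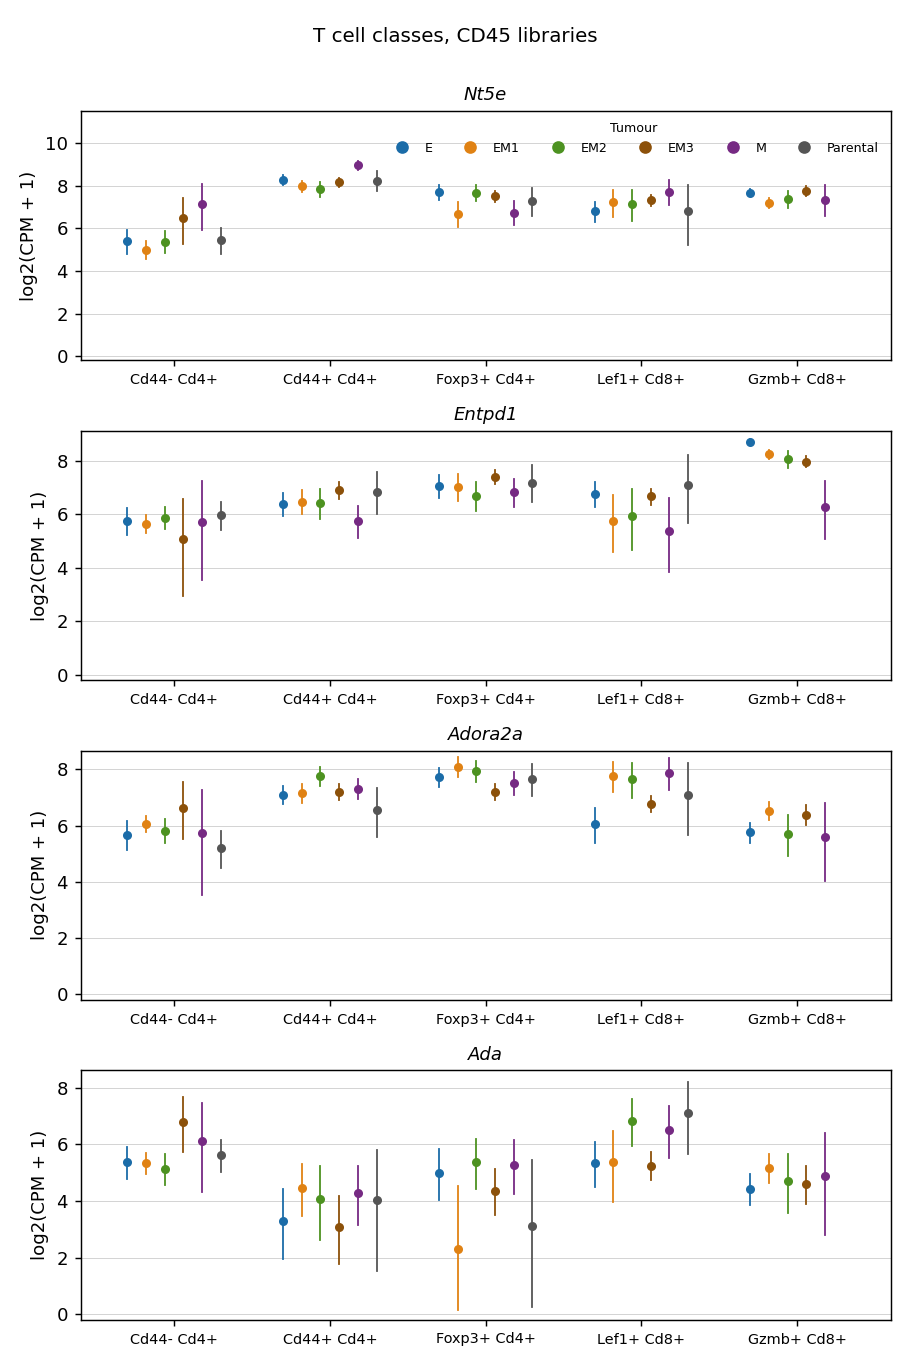
Level of Nt5e, Entpd1, Adora2a and Ada, as log2(CPM + 1), in T-cell subtypes of the CD45 libraries, 1 point per tumour with its exact 95% Poisson interval. The subtypes are Cd44- Cd4+, Cd44+ Cd4+, Foxp3+ Cd4+, Lef1+ Cd8+ and Gzmb+ Cd8+, and Adora2b is not drawn. Nt5e is highest in Cd44+ Cd4+ cells, Entpd1 in Gzmb+ Cd8+ cells in E, EM1, EM2 and EM3.

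The classes that supplied the transcripts of a gene differed between tumours. Tumour cells supplied 89.6% of the Nt5e UMIs of the Total library in EM1, 89.2% in EM2, 87.4% in the parental tumour, 77.2% in M and 74.4% in EM3. In E, where tumour cells were 7.2% of cells against 23.2% to 56.2% elsewhere, they supplied 34.6%, macrophages 36.5% and T and NK cells 20.1%. These shares mix cell numbers, UMIs per cell and the level of the gene in a class, which were not separated here, and dissociation can change the numbers. Entpd1 UMIs came mostly from macrophages in EM2 (75.4%), EM3 (73.1%), the parental tumour (71.0%) and EM1 (58.4%). In M, granulocytes supplied more of them than macrophages (49.1% against 41.2%), and in E the shares were 35.9% and 46.9%. Adora2b UMIs came from macrophages by 46.3% (parental) to 88.2% (EM3).

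**Figure D5:**
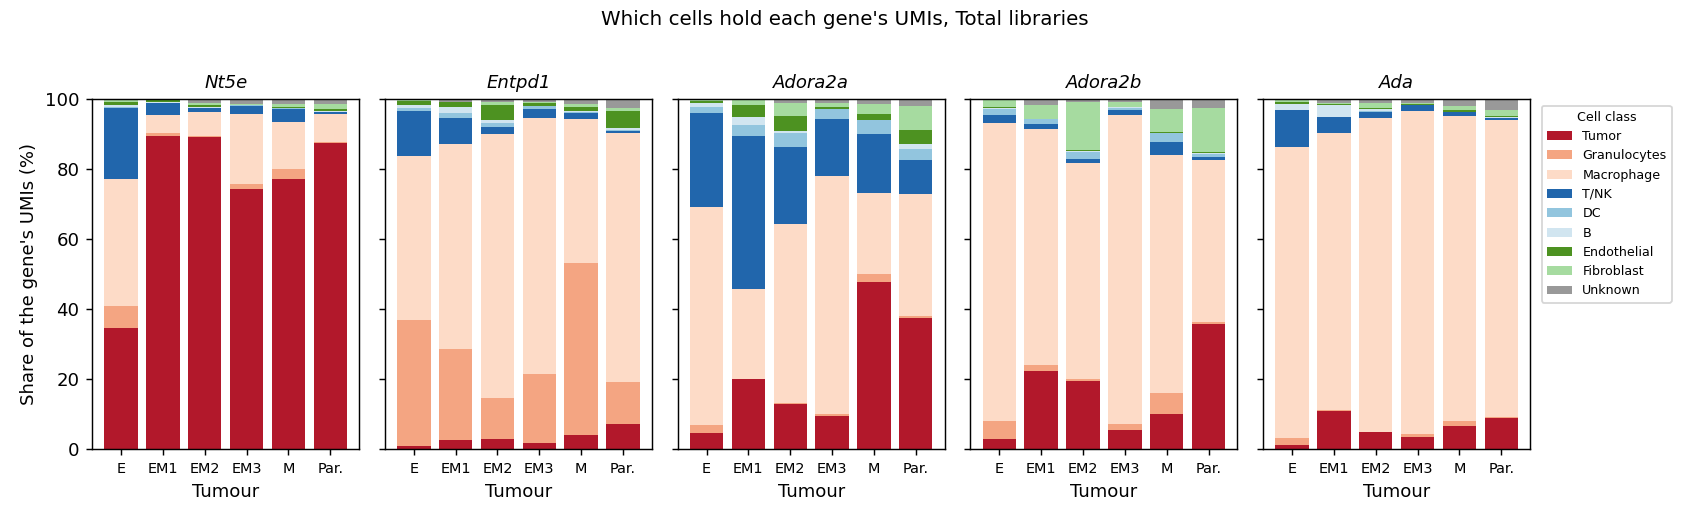
Share of the UMIs of each gene (percent, stacked bars that start at 0) that each annotated class supplied in the Total library of each tumour. Tumour cells supply most Nt5e UMIs in every tumour except E, where they supply 34.6%, and macrophages supply most Ada UMIs in all 6.

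Across the 6 tumours no relation between an enzyme and a receptor or between both enzymes passed the test. Of 6 relations computed on log2(CPM + 1), the closest was between Nt5e in tumour cells and Entpd1 in macrophages, with Pearson's r = 0.752 (exact permutation p = 0.0847, adjusted 0.508) and Spearman's rho = 0.486 (exact permutation p = 0.356, adjusted 1.0), n = 6 tumours. Without EM2 and M, the tumours farthest from the median of Nt5e, r was −0.158, so this value rests on those tumours. Entpd1 in macrophages against Adora2a in T and NK cells had r = 0.276, and 0.929 without M and the parental tumour, the tumours farthest from the median of Entpd1. The other 5 relations, which included Nt5e in tumour cells against the difference between mesenchymal and epithelial genes, had r of −0.217 to 0.276 with exact permutation p of 0.575 to 0.990.

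The further genes of the pathway were taken as 27 genes in 4 lists, of which 22 were tested in the Total libraries. In macrophages against tumour cells 15 of 22 were higher and 3 lower, against 38.6% higher and 39.4% lower of all genes tested, with a median log2 difference of 2.15 against −0.02 over all 11694 genes. Among ectonucleotidases 3 of 7 were higher and 1 lower, a share of higher genes near the 38.6% of all genes. Cd38 (5.03 ± 0.26) and Bst1 (5.24 ± 0.29), which use NAD, were higher and Alpl, an alkaline phosphatase, was lower (−3.65 ± 0.40). Among genes of uptake and removal, 5 of 7 were higher and 2 lower: the transporters Slc28a2 (4.82 ± 0.34) and Slc29a3 (3.92 ± 0.20) were higher, and the transporter Slc29a1 (−1.89 ± 0.12) and the kinase Adk (−0.62 ± 0.16) were lower. Among genes of ATP release and of receptors for ATP and other nucleotides, 6 of 7 were higher. P2rx7 was at 5.05 ± 0.25, P2rx4 at 4.10 ± 0.16 and the channel Panx1 at 2.38 ± 0.17.

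In granulocytes against tumour cells 14 of 22 were higher and 4 lower, against 32.6% and 46.7% of all genes, with a median of 1.80 against −0.32 over all genes. Slc28a2 (7.61 ± 0.38), Bst1 (6.95 ± 0.31) and Entpd3 (6.41 ± 0.47), which acts on ATP as Entpd1 does, were higher. In T and NK cells 13 of 22 were higher and 5 lower, against 33.4% and 40.2% of all genes (median 0.93 against −0.08). Dpp4, which encodes the surface peptidase CD26, was higher by 6.80 ± 0.35 and Adk by 1.04 ± 0.16. In the stromal mean 14 were higher and 4 lower, against 28.8% and 36.3% of all genes (median 1.56 against −0.11), with Entpd2 at 4.33 ± 0.50 and Pnp, which acts on inosine after Ada, at 1.82 ± 0.11. In every one of these comparisons Slc29a1 was lower than in tumour cells.

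In the CD45 libraries 20 of the 27 genes were tested. Dendritic cells were lower than macrophages in 14 and higher in 3, against 22.0% lower and 25.8% higher of all genes, among the 3 Dpp4 (5.26 ± 0.21). All 7 genes of ATP release and of receptors for ATP and other nucleotides were lower. Granulocytes were higher than macrophages in 7 and lower in 9, against 38.0% and 39.7% of all genes, and by library sizes alone in 5 and 12, with P2ry13, an ADP receptor, changing direction. Foxp3+ cells were higher than the Cd44- class in 5, among them Cd38 (1.15 ± 0.33), Pnp (1.06 ± 0.30) and P2rx7 (0.99 ± 0.25), and lower in 3, namely Enpp1 (−2.10 ± 0.32), Dpp4 (−1.23 ± 0.37) and Adk (−0.98 ± 0.18); 17.2% of all genes were higher and 17.3% lower. Of the 20 genes, Panx1 alone passed against Cd44+ cells, where it was higher (0.63 ± 0.20); 7.41% of all genes were higher and 6.95% lower. Gzmb+ Cd8+ cells were higher than Lef1+ cells in 2 and lower in 4, against 5.84% and 6.80% of all genes, with P2rx7 (−1.52 ± 0.27) and Adk (−1.43 ± 0.26) among the latter.

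The genes whose pattern was most like each of the 5 were sought over 52 class and tumour sums of the Total libraries among 13272 genes, by Pearson's r of log2(CPM + 1), as a description. They were Tgfa (0.826), Hspa4l and Gdpd5 for Nt5e, Bst1 (0.894), Litaf and Tmbim6 for Entpd1, Tnfrsf9 (0.831), Stk32c and Prelid2 for Adora2a, Kif1a (0.804), Zfp385a and Anpep for Adora2b, and Slc38a6 (0.858), Cmklr1 and Gde1 for Ada. The sums share libraries and depth within a tumour, so they are not independent points.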

How the data were processed

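Single-cell RNA was measured in 12 libraries, a Total and a CD45 library from each of 6 tumours. The authors deposited UMI counts per gene and cell, made with Cell Ranger on mm10 per the submitters' processing notes. Versions, cell filters and strand are not given in the sources used here. Per the file headers, the deposited cell tables also hold mitochondrial content as a percent and as a fraction, a complexity score on a log10 scale and the authors' cell classes, and only the classes were used.

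Doublets were called per library with a simulation-based score at a common limit of 0.297 and left out. For every class of 20 or more cells in a library the UMI counts of its cells were added up, with Python 3.11.15, numpy 2.4.6, scipy 1.17.1 and scanpy 1.11.5. Classes were compared within tumours with edgeR 4.0.16 in R 4.3.3: quasi-likelihood test, tumour and class as terms, TMM scaling, filterByExpr, and Benjamini-Hochberg adjustment over all genes tested, called at an adjusted p under 0.05. The spread was estimated per gene over all classes of a fit, so a p-value does not measure only how 1 class difference varies between tumours. Gzmb+ Cd8+ cells were compared in 5 tumours and the other compared classes in 6. DESeq2 1.42.0, a lower filter, 50 cells per class, kept doublets, a fit of only the classes compared, cells split by Ptprc (the gene of CD45) and leaving out each tumour were the alternatives, and library sizes alone and 7 further pairs of classes were added after the data were seen. On simulated counts for macrophages against tumour cells over 11694 genes, 91 of 100 genes changed by 1 on the log2 scale and 100 of 100 changed by 2 were recovered. For dendritic cells against macrophages over 10355 genes these were 84 and 97 of 100, and for Foxp3+ against Cd44- T cells over 10190 genes 73 and 98 of 100. These counts were drawn from the fitted model itself, with both classes otherwise set equal. The changed genes were picked above a minimum mean count, so the rates do not cover genes of few counts or data in which most genes differ. NK cells are the broader NK class, because the subtype annotated NK carried genes of plasmacytoid dendritic cells.

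The 5 genes, the gene lists and the comparisons were chosen with earlier results of these data known. The 5 genes are named in every class. A further gene of the pathway was named only at 10 CPM or more in a class of every tumour, and the 3 most alike genes are those with the highest r.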

Additional observations from a re-analysis of the deposited data

Results flagged for a closer look

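Nt5e in T and NK cells against tumour cells went one way in M and the other way in the other 5 tumours. On the log2(CPM + 1) scale the difference was 0.5713 in M, against −0.9734 (parental), −1.015 (EM1), −1.267 (E), −1.434 (EM3) and −1.651 (EM2), with 1 tumour per group, so the difference between tumours was not tested. M had the lowest Nt5e level of the 6 in tumour cells (161 CPM), while its T and NK level (240.4 CPM) lay within the 162 to 264 CPM of the other tumours.

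Nt5e in T cells against macrophages of the CD45 libraries was flagged for the same reason. The difference was positive in E (0.7197), EM1 (0.8404), EM3 (0.5405) and M (2.162), negative in the parental tumour (−0.7684), and in EM2 both classes were at 113 to 114 CPM with overlapping intervals. This was not tested between tumours. Over the 6 tumours, in a comparison chosen after the levels had been seen, it did not pass (0.12, edgeR adjusted p = 0.599). Without M it was −0.17, and by library sizes alone it passed at 0.66 (edgeR adjusted p = 0.00357). In the Total libraries Nt5e in T and NK cells lay above macrophages in 6 of 6 tumours.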

How the results depend on the processing

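Over the 80 differences of the 5 genes (16 pairs of classes), 934 of 994 values under an alternative kept their direction and their side of the threshold, 26 lost and 14 gained a call at the same direction, and 20 changed direction; none of these 20 had passed the test before. Leaving out 1 tumour accounts for 12 of the 20 and for 20 of the 26. The values that changed direction were Adora2a in granulocytes against tumour cells (−0.12 by library sizes alone), Adora2b in endothelial against tumour cells (−0.15 with every gene of at least 1 count, −0.28 to 0.52 without 1 tumour), Nt5e in granulocytes against macrophages of the CD45 libraries (−0.0617 with DESeq2, −0.86 by library sizes alone, −0.0046 in the fit of only both classes, −0.13 to 0.19 without 1 tumour), Nt5e in T cells against macrophages (−0.17 to 0.34 without 1 tumour), Entpd1 in NK against T cells (0.0405 with DESeq2, 0.0754 with at least 50 cells, −0.16 to 0.0762 without 1 tumour) and Adora2b in Foxp3+ against Cd44+ cells (0.0477 with doublets kept, −1.32 to 0.64 without 1 tumour) and against Cd44- cells (−0.23 to 1.53 without 1 tumour). The cause was not tested.

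The number of genes that passed rose from 9113 to 14044 in macrophages against tumour cells with every gene of at least 1 count, from 7613 to 12273 in stromal against tumour cells with DESeq2, and from 9270 to 13971 with DESeq2 and 14085 with every gene of at least 1 count in granulocytes against tumour cells; these settings test more genes. In Gzmb+ against Lef1+ cells it was 1288, and 765 (without EM3) to 1347 without 1 tumour. The share of calls that were higher in the first class moved with DESeq2, which also tests other genes with another test, and by library sizes alone, a scaling added after the data were seen. It was 41.1% in granulocytes against tumour cells, 68.3% with DESeq2 and 26.8% by library sizes alone; for stromal cells 44.2%, 73.6% and 30.02%; for macrophages 49.5%, 58.3% and 35.5%; for fibroblasts 46.5%, 72.4% and 26.1%; for granulocytes against macrophages of the Total libraries 46.5%, 69.1% and 36.2%. It moved from 45.4% to 59.0% for T and NK cells, from 43.9% to 71.0% for endothelial cells and from 48.2% to 63.6% for NK against T cells with DESeq2, and from 48.9% to 22.8% for granulocytes against macrophages of the CD45 libraries, from 51.5% to 71.6% for T cells against macrophages, from 49.5% to 75.4% for T and NK cells against macrophages of the Total libraries and from 49.8% to 39.5% for Foxp3+ against Cd44- cells by library sizes alone.

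The range of Nt5e over tumour cells, 2.18 on the log2(CPM + 1) scale, was 2.12 with a pseudocount of 10 and 1.85 for the thinned share of cells. Of the 6 relations over the tumours, that of Nt5e in tumour cells with Entpd1 in macrophages (0.752) was 0.320 (without M) to 0.863 without 1 tumour and −0.158 without both EM2 and M. The other 5 changed sign under at least 1 alternative: Nt5e in tumour cells against the mesenchymal score was −0.0036 and 0.00076 with a pseudocount of 10 (−0.312 to 0.524 without 1 tumour), against Adora2b in macrophages −0.0759 and 0.428 with the CD45 libraries, against Adora2a in T and NK cells −0.504 to 0.217 and against Entpd1 in tumour cells −0.159 to 0.159 without 1 tumour. Entpd1 in macrophages against Adora2a in T and NK cells was 0.276, −0.248 with the CD45 libraries, and −0.210 to 0.971 without 1 tumour. Every class comparison is paired by tumour, since the tumour is a term of the fit. Class sizes limit the precision: Adora2a in the 55 dendritic cells of the EM1 Total library was 64.1 CPM with an interval of 35.1 to 108.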
